A study of Mus musculus with 2 samples.

Results

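The cells described here are nondividing medullary thymic epithelial cells (mTECs) with an intermediate level of Aire, and they were 559 of the 8303 cells kept from a pair of single-cell RNA libraries of mouse thymic epithelium. The libraries held counts of unique molecular identifiers (UMIs) at transcript 3′ ends from thymic epithelial cells (TECs) of C57BL/6 mice. One library came from mice given a sublethal dose of gamma rays and analysed 15 days later, and the other from unirradiated mice, with 3 mice pooled into each. The study asked how mTEC subsets recover after irradiation. The mice were female, the sorted cells were EPCAM+ CD45- TER119-, and the labels give an age of 9 weeks for both libraries while the dissection protocol in the labels names mice of 4 weeks. GEO's titles and the names of the deposited matrices disagree, since the sample titled for the control holds the matrix named for the irradiated cells and the reverse. The number of cells that the filter described next leaves in each matrix is the one the study gives for the condition in the matrix name. The libraries are called control and irradiated after the matrix names, and every direction between them reverses if the titles are right.

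A cell was kept when it had more than 2000 and fewer than 7500 detected genes and under 15% of its UMIs from mitochondrial genes. It was chosen when its Aire level was at least 1 and under 5 UMIs per 10000 UMIs of the cell and when it passed limits on other TEC types. These limits were under 20 per 10000 for Ccl21a, 4 for Mki67 and Top2a, 6 for Mcm2 to Mcm7, 15 for Psmb11 and Prss16, 5 for Avil and Trpm5, 5 for Pigr, Prap1, Guca2b and Muc13, and 10 for Gp2, Ccl6, Ccl9 and Ccl20. All levels below are UMIs per 10000. Of the cells in the Aire range, 425 control and 714 irradiated cells, the other limits left 218 and 341. Most of the cells lost were over the limit on Ccl21a, which removed 70 control and 148 irradiated cells, or over that on Mki67 and Top2a, which removed 66 and 138. Because the measured values chose the cells, the genes of the rule are given as a description only. As neighbours, cells that passed every limit but that on Aire were split into Aire-high cells, with a level of at least 5 (610 control and 965 irradiated), and Aire-low cells, with a level under 1 (559 and 522).

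In the thymic medulla, AIRE is a transcriptional regulator that lets mTECs express genes otherwise confined to other tissues, so that developing T cells reactive to those products can be removed or diverted. Cycling mTEC precursors give rise to AIRE-positive cells rich in MHC class II and costimulatory molecules, which later lose AIRE and can resemble cells of skin, gut, muscle, lung or endocrine organs. Cells with little Aire can therefore lie on the way into or out of the AIRE-positive stage, and a count of RNA at a fixed time does not tell which.

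Depth sets how finely the Aire range can be read. The chosen control cells had a median of 17150 UMIs (range 4586 to 41565) and the irradiated ones 14617 (4722 to 42136), and their summed counts were 3887248 and 5219669 UMIs. They carried a median of 4 and at most 20 Aire UMIs in each library, and 22 of 218 control cells and 44 of 341 irradiated cells were chosen on 1 Aire UMI. Aire-high cells were deeper, with medians of 19283 and 16236 UMIs, and Aire-low cells shallower, with 10945 and 10980.5. At the lower edge of the rule, the 31 control and 28 irradiated cells at an Aire level of 0.8 to 1 had summed Ccl25 levels of 5.497 and 2.12, against 2.83 and 0.331 in the 22 and 23 cells at 1 to 1.2. At the upper edge, Ccl25 was 7.60 and 4.33 in the 21 and 37 cells at 4.5 to 5, and 4.73 and 13.3 in the 23 and 26 cells at 5 to 5.5. Across the lower edge Ccl25 was thus the lower just inside the rule in both libraries, and across the upper edge it differed in opposite directions. Since each condition is 1 library, no difference below has a replicate check and none was tested. Ranges of levels and shares are 95% intervals, exact Poisson for levels and Clopper-Pearson for shares. The range of a log2 ratio sets opposite ends of such intervals against each other, so it is wider than a 95% interval. All ranges cover counting error only. The libraries shared 17 barcodes among all droplets, 5 among kept cells and 0 among the chosen cells.

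The chosen cells took nearly the same share of both libraries. They were 6.74% (5.90 to 7.66) of kept control cells and 6.73% (6.05 to 7.45) of kept irradiated cells, so that the log2 ratio was 0.00 (-0.34 to 0.34). Among cells that passed every limit but that on Aire they made up 15.7% (13.8 to 17.7) and then 18.7% (16.9 to 20.5), and the log2 ratio was 0.25 (-0.07 to 0.57). The Aire-high share of kept cells was 18.9% and 19.03%, and the Aire-low share 17.3% and 10.3%. Within the chosen range the control cells sat lower, with 38.5% (32.0 to 45.3) at an Aire level of 1 to 2 against 29.3% (24.5 to 34.5) of the irradiated cells, and these intervals overlap. The median Aire level was 2.66 and 2.84.

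The label was checked against markers outside the rule. Epithelial genes were abundant, with Krt17, an intermediate filament gene, at 28.8 and 28.5, Krt8, a keratin of simple epithelia, at 21.8 and 19.9, and Epcam, the epithelial adhesion gene used in the sort, at 7.83 and 8.77. Krt8 and Epcam are shared by cortical and medullary cells. Of genes better known from the medulla, the transcription factor gene Fezf2 was at 6.14 and 5.29 and the basal keratin gene Krt5 at 2.13 and 2.69. Cd74, the MHC class II invariant chain, stood at 224 and 216. Of 16 division genes that the rule did not use, the summed level was 3.03 (2.86 to 3.21) and 4.57 (4.39 to 4.76). It was 31.8 and 34.8 in the 66 and 138 cells of the same Aire range that exceeded the limit on Mki67 and Top2a. Both neighbours, which passed that limit, were below the chosen cells, with 2.24 and 2.41 in Aire-high and 1.52 and 2.13 in Aire-low cells. A Mki67 or Top2a UMI was still present in 65 of 218 and 114 of 341 chosen cells. Most of the chosen cells thus had no detected transcript of either gene, but "nondividing" holds by the rule and not as a full absence of division transcripts. Markers of other cells were low. The summed level of 17 thymocyte genes was 1.23 and 1.09, with Trbc2, a T cell receptor constant gene, the most abundant. It was 1.17 and 1.34 for 5 B cell genes, 2.12 and 1.64 for 7 fibroblast genes, 0.0952 and 0.155 for 4 endothelial genes and 0.203 and 0.270 for 4 erythroid genes. The 10 myeloid genes summed to 11.6 and 11.03, most of it Lyz2 and Laptm5, while Ptprc, which encodes CD45, was at 0.157 and 0.0556. Myeloid genes were higher still in Aire-high cells, at 15.3 and 14.1. Of the genes of these 6 lists, Pdgfra, a growth factor receptor gene of fibroblasts, was at 0 in the control cells and was held by 1 irradiated cell, and the endothelial genes Kdr and Emcn were at 0 in the irradiated cells, with 1 UMI each in the control cells. The 11 cortical genes outside the rule summed to 16.7 and 12.8, with Tbata alone at 9.95 and 6.95, whereas the 138 and 364 cortical cells stood at 287 and 318.

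Ccl25, Ccl5, Resp18 and Hoxc11, named with Aire as markers of these cells, behaved differently from one another. Ccl5 and Resp18 were higher in the chosen cells than in both neighbours in both libraries. Hoxc11 was higher than both in both libraries, but by little in the irradiated one. Of the Aire-low cells, 475 control and 429 irradiated cells had no Aire UMI. The others were 84 and 93 cells at an Aire level over 0 to 1. They had Ccl5 at 16.4 and 7.76, Resp18 at 3.14 and 2.16 and Hoxc11 at 0.516 and 0.464. Their control Ccl5 and irradiated Hoxc11 levels thus exceeded those of the chosen cells, and the other 4 values did not. Ccl25 was higher than in Aire-low cells in both libraries but lay beside the Aire-high level, above it in the control library and below it in the irradiated one. The control order turned when the highest cell of each group was left out. Ccl25 was then at 5.59 and 2.98 in the chosen cells against 5.81 and 4.26 in Aire-high cells. Ranked by how far the chosen cells exceeded both neighbours in both libraries, Ccl5 stood at 38, Resp18 at 59, Hoxc11 at 268 and Ccl25 at 4856 of 8923 genes. Those genes had at least 100 UMIs in the chosen cells, so the ranks describe the markers and do not support them.

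Ccl25 encodes the chemokine that draws CCR9-bearing T cell progenitors, and cortical epithelium is its main thymic source. The chosen control cells held it at 6.72 (6.47 to 6.98), from 2613 UMIs, and the irradiated ones at 3.46 (3.30 to 3.63), from 1807 UMIs. The irradiated value was lower by a log2 ratio of -0.96 (-1.08 to -0.83). Aire-high cells had 6.07 and 4.47, Aire-low cells 2.31 and 2.13, and cortical cells 53.1 and 58.9. The lower value in the irradiated library was therefore seen in chosen and Aire-high cells, while cortical cells moved by little and the other way. Cells with Ccl21a at 20 or more had 2.63 and 3.72, and all kept cells 5.83 and 7.45, so both were higher in the irradiated library. Cells of the same Aire range that exceeded the limit on Mki67 and Top2a held almost no Ccl25, at 0.178 (35 UMIs) and 0.632 (230 UMIs). Within the chosen cells, those without a Mki67 or Top2a UMI stood at 8.44 and 4.49, and those with one at 3.68 and 2.04.

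Few cells carried most of the Ccl25. A UMI of it was found in 123 of 218 control cells (56.4%) and 137 of 341 irradiated cells (40.2%). The highest control cell held 453 UMIs and the highest irradiated cell 254, with 207 and 203 in the next. Over both libraries the highest 1% of cells held 32.4% of Ccl25 UMIs, against a median of 6.67% over 2885 genes. Without the highest cell of each library the levels were 5.59 and 2.98 with a log2 ratio of -0.91 (-1.04 to -0.77). When the highest 5% of cells were left out they were 2.48 and 0.927, a log2 ratio of -1.42. The ratio was thus not carried by the extreme cells, although these cells held much of the level in both libraries. Leaving out the highest cell and leaving out the highest 5% were both chosen after the values were seen. With the rule applied to thinned cells, which keeps those with 1 Aire UMI, the log2 ratio of Ccl25 was -0.39. With every cell thinned to 4000 UMIs, 20.2% (15.1 to 26.1) of control and 11.7% (8.51 to 15.6) of irradiated cells kept at least 2 Ccl25 UMIs, and 32.6% and 21.1% did without thinning. Tuft cells gave 2.50% and 3.75% at the same thinned depth, from 160 cells in each library with median depths of 13616.5 and 10669 UMIs. Cells with Ccl21a at 20 or more gave 5.14% and 9.18%. The thinned share was 24.9% and 19.2% in Aire-high cells, 11.6% and 12.1% in Aire-low cells and 92.0% and 95.6% in cortical cells. The share in irradiated chosen cells thus lay at the Aire-low share but above the tuft share. Whether free cortical RNA or doublets with cortical cells had a part in the Ccl25 counts was not tested.

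**Figure D1:**
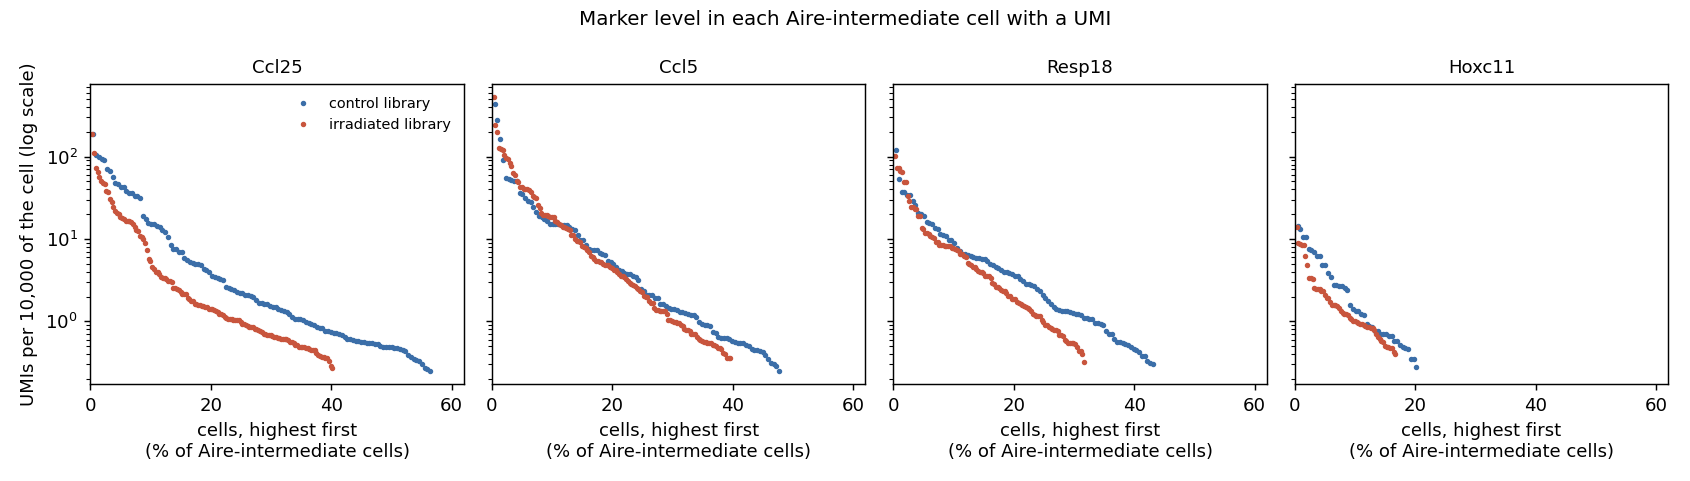
Level in each chosen cell (UMIs per 10000 of the cell, log scale) against the cell's rank as a percentage of the chosen cells of its library, for Ccl25, Ccl5, Resp18 and Hoxc11, with 1 line per library. Most cells hold none or little of each gene and the curves climb over the top few percent, and for Ccl25 the control curve starts at 56.4% of cells and the irradiated one at 40.2%.

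The Ccl25 gene (ENSMUSG00000023235) spans chr8:4325210-4360020 on the plus strand of GRCm38, and RefSeq lists a pair of transcription starts in it that differ strongly in base composition. The RefSeq windows of 300 bases around each start are shown because the results on the markers turn most on Ccl25. They are given for GRCm38.p6, are read 5′ to 3′ on the plus strand, and carry TATAAA in capitals wherever these letters occur.
Ccl25 upstream start, chr8:4324960-4325259: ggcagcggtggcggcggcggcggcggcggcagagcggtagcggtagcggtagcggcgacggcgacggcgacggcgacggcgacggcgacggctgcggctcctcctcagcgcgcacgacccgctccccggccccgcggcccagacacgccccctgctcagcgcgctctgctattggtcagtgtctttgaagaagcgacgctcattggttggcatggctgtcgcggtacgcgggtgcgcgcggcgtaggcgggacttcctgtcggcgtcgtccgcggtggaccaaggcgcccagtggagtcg
Ccl25 downstream start, chr8:4349338-4349637: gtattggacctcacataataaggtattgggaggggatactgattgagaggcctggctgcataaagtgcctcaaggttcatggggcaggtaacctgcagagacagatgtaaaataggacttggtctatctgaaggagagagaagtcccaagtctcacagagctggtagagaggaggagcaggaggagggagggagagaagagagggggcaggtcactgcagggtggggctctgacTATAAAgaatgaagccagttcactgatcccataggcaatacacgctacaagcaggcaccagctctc
The upstream window holds 52 CG dinucleotides and no TATAAA. The downstream window holds 1 CG and 1 TATAAA, whose first base lies 16 bases before the start. Over 32851 promoter windows of the same length, 13.6% hold TATAAA on either strand and the median is 7 CG. Counts from transcript 3′ ends sum over both starts, so they do not show which was used.

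Ccl5, a chemokine for T cells and monocytes (ENSMUSG00000035042, chr11:83525778-83530518, minus strand), was at 8.94 (3477 UMIs) among the control cells and 8.51 (4442 UMIs) among the irradiated ones. The log2 ratio was -0.07. Aire-high cells had 4.92 and 2.66, and Aire-low cells 5.02 and 3.81. A single control cell held 1424 of the UMIs and a single irradiated cell 1093. Without them the levels were 5.33 and 6.44 and the log2 ratio 0.27, and without the highest 5% of cells they were 2.39 and 2.22 and the log2 ratio -0.11 (-0.29 to 0.07), so the libraries had no stable order in Ccl5. With the highest cell of each group left out, Aire-high cells had 4.31 and 2.48 and Aire-low cells 3.42 and 3.30, below the chosen cells. Cells with a Ccl5 UMI were 104 of 218 (47.7%) and 135 of 341 (39.6%). Thinned to 4000 UMIs the shares were 32.1% and 27.9%, against 8.12% and 5% of tuft cells.

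Resp18 encodes a secretory pathway protein first known from endocrine and neural cells, and its gene (ENSMUSG00000033061) lies at chr1:75272199-75278415 on the minus strand. Its level was 3.34 (1300 UMIs) and 2.71 (1415 UMIs), which gives a log2 ratio of -0.30. Without the highest cell of each library it was -0.17 (-0.33 to 0.00), without the highest 5% of cells -0.60 (-0.86 to -0.33), and at an Aire level of 1.5 to 4 it turned to 0.052. Aire-high cells had 1.12 and 1.01, log2 differences of 1.58 and 1.43 in favour of the chosen cells, and Aire-low cells had 1.88 and 1.75. Along the Aire axis Resp18 was highest at an Aire level of 1 to 2 among control cells, at 5.51, and at 2 to 3 among irradiated cells, at 3.86, and it was 0.854 and 0.879 in cells with at least 10. A Resp18 UMI was found in 94 of 218 and 108 of 341 cells, and in 31.2% and 21.7% after thinning, against 11.9% and 3.12% of tuft cells.

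Hoxc11, a posterior homeobox gene (ENSMUSG00000001656, chr15:102954427-102957708, plus strand), was at 0.605 (235 UMIs) and 0.274 (143 UMIs), with a log2 ratio of -1.14 (-1.57 to -0.71). The irradiated level lay near the 0.230 of Aire-high and 0.226 of Aire-low cells, whereas the control level exceeded theirs of 0.247 and 0.171. Without the highest cell of each library Hoxc11 was at 0.498 and 0.251, and without the highest 5% of cells at 0.174 and 0.104, with a log2 ratio of -0.74 (-1.51 to 0.02). Of 39 Hox genes, which give positional identity in the embryo, 35 had at least 1 UMI in the chosen cells and Hoxd13, Hoxd12, Hoxa6 and Hoxa11 had none. Only Hoxc11 had the 100 UMIs needed for a comparison between the libraries. Its neighbours in the cluster had fewer, with Hoxc8 at 0.141 and 0.0211, Hoxc9 at 0.108 and 0.0307, and Hoxc10 at 0.0978 and 0.0402.

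The markers were found together in part. After thinning, Ccl5 was seen in 45.6% (33.5 to 58.1) of control cells with a Resp18 UMI and in 26.0% (19.2 to 33.8) of those without. In the irradiated library these shares were 37.8% (26.8 to 49.9) and 25.1% (20.01 to 30.7). Ccl25 was seen in 38.2% of control cells with Resp18 and 33.3% of those without, and in 32.4% and 19.5% in the irradiated library. Cells with Ccl5 held Ccl25 in 42.9% of cases against 31.1% of cells without Ccl5 in the control library, and in 27.4% against 20.3% in the irradiated library. In each of these 3 pairs the share was higher among cells with the first gene in both libraries, with intervals that overlap. Hoxc11 and Ccl25 had no common direction, with Ccl25 in 31.8% of control cells with Hoxc11 and 35.2% of those without, and in 24% and 22.2% in the irradiated library. Cd80 and Ccl25 did not either, at 45.3% and 31.5% in control and 19.4% and 23.05% in irradiated cells. Fezf2 and Hdc, genes outside the named markers, went the same way as the marker pairs, again with intervals that overlap. With Fezf2, Ccl25 was in 37.4% of control cells and without it in 28.6%, and in 24.5% and 17.3% in the irradiated library. For Hdc these shares were 40.2% and 29.7% in control and 25% and 19.5% in irradiated cells. The higher Ccl25 shares were thus not confined to the named markers.

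Split into bins of the Aire level, the genes differed in where their level shifted. Hdc, histidine decarboxylase and a marker of the Aire-positive stage, climbed with Aire from 0.465 at an Aire level of 0 to 8.08 at 10 or more in the control library, and from 0.507 to 7.37 in the irradiated library. Krt5, a basal keratin, went the other way, from 5.16 to 0.498 and from 7.29 to 0.768. MHC class II genes reached most of their level at a low Aire level. Their sum was 254 and 273 at an Aire level of 0, 535 and 432 at over 0 to 1, 450 and 436 at 1 to 2, 500.4 and 515 at 2 to 3, 507 and 482 at 3 to 4, and 550 and 547 at 10 or more, with no steady climb in either library. Ccl25 did not follow the Aire level in a single direction. In the control library it was 3.17 at an Aire level of 1 to 2, 10.4 at 2 to 3, 7.25 at 3 to 4 and 8.52 at 4 to 5, and then 4.66 at 5 to 10. The irradiated library had 1.03, 3.71, 3.57, 5.60 and 5.01 in the same bins. The irradiated value was the lower in all 4 bins of the chosen range.

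**Figure D2:**
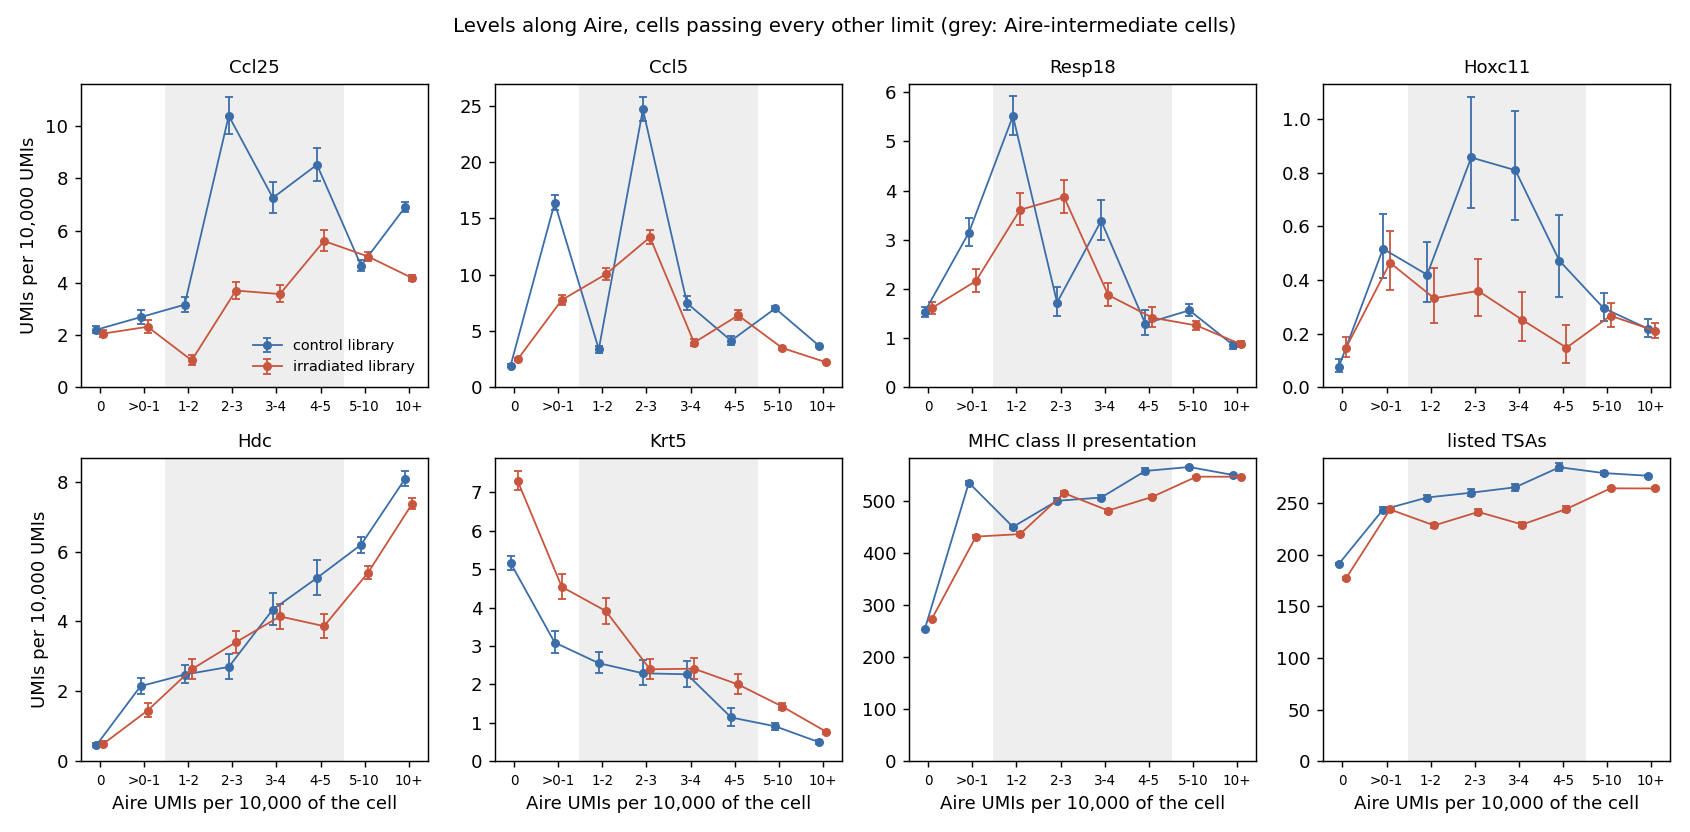
Summed level (UMIs per 10000, with exact Poisson 95% intervals) of markers and gene lists in cells binned by Aire level, passing every other limit, with 1 line per library and the range of the chosen cells in grey. Hdc climbs and Krt5 declines along the axis, MHC class II reaches most of its level before the grey range, and within it Ccl25 is lower in the irradiated library in every bin.

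Fewer genes set the chosen cells apart from Aire-high than from Aire-low cells. A gene was counted when its level differed by at least 2-fold in the same direction in both libraries. Of 14192 genes with enough UMIs, 225 (1.59%) were higher and 391 (2.76%) lower than in Aire-high cells. Of 12453 genes, 914 (7.34%) were higher and 1148 (9.22%) lower than in Aire-low cells. Over all genes the median log2 difference was 0.13 and 0.09 (control and irradiated) against Aire-high cells and -0.08 and -0.15 against Aire-low cells. The values below are not centred on these shifts. With 5 UMIs in place of 0.5 added to each sum, 268 genes were higher and 202 lower than in Aire-high cells, and with levels averaged over cells 1171 were higher and 1102 lower than in Aire-low cells. The latter counts were 343 and 806 with the rule applied to thinned cells, and 1647 and 1397 with a minimum of 30 UMIs.

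Genes of the Aire-positive stage were closer to Aire-high than to Aire-low cells. Of 10 such genes, 9 were at least 2-fold higher than in Aire-low cells in both libraries, against 7.34% of all genes, and 0 of 10 differed by that much from Aire-high cells. The sum of the list was 75.6 and 75.3, against 104 and 99.4 in Aire-high and 27.3 and 31.8 in Aire-low cells. Hdc was at 3.52 and 3.50, against 0.825 and 0.745 in Aire-low cells. Fezf2, a transcription factor that directs antigen genes separately from AIRE, was at 6.14 and 5.29 against 2.10 and 2.22. Cd80, a ligand that costimulates T cells, was at 0.772 and 0.751 against 0.284 in both. S100a8, a calcium-binding alarmin of myeloid cells that mTECs also express, was at 3.96 and 5.31 against 0.497 and 1.30. Cd52 was the exception, at 6.84 and 5.90 against 4.06 and 3.01.

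In their sums, MHC class II genes lay between the neighbours and MHC class I genes above both. The 11 MHC class II genes summed to 496 and 485, against 556 and 547 in Aire-high cells and 314 and 313 in Aire-low cells. Against Aire-low cells 3 of 11 passed the fold, H2-DMb2 and H2-Ob, which encode chains of the loading factor and of its inhibitor, and Ctss, a protease that trims the invariant chain. The classical chains H2-Aa (94.5 and 91.2) and H2-Ab1 (86.2 and 80.9) did not. The 14 MHC class I genes summed to 156 and 159, against 145 and 148 in Aire-high cells and 124 and 129 in Aire-low cells. Of these 14, 1 was past the fold against Aire-low cells, H2-M2. Signalling through RANK and CD40, receptors that drive mTEC maturation through NF-kB, gave 5 of 12 genes higher than in Aire-low cells, against 7.34% of all genes. Tnfrsf11a, which encodes RANK, was at 1.57 and 1.61 against 0.582 and 0.708. Cd40 stood at 1.01 and 1.16 against 0.226 and 0.305, and Relb, the NF-kB subunit mTECs need, at 3.15 and 3.37 against 1.09 and 1.49. Tnfrsf11b, which encodes the decoy receptor of RANK ligand, and Nfkb2 were the others, and Ltbr, the lymphotoxin receptor gene, was lower. Against Aire-high cells 0 of these 12 passed. Among 8 costimulatory and checkpoint genes, Cd80, Cd40, Icosl and Tnfsf9 were higher than in Aire-low cells and 0 differed from Aire-high cells.

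Notch genes moved in steps across the 3 groups. Their sum was 2.17 and 1.99, below the 4.87 and 5.15 of Aire-low cells and above the 1.16 and 1.196 of Aire-high cells. Of 11 genes, 7 were lower than in Aire-low cells, against 9.22% of all genes, and 3 higher than in Aire-high cells, against 1.59%, namely the ligands Jag1 (0.301 and 0.228 against 0.0981 and 0.0790 in Aire-high cells) and Jag2, and the target Hes1 (0.175 and 0.153 against 0.0791 and 0.0578). Of 14 epithelial genes, 1 was higher than in Aire-high cells and 3 were lower than in Aire-low cells. Krt5, the gene above Aire-high cells, was at 2.13 and 2.69, against 0.652 and 0.994 in Aire-high cells, and Trp63, the regulator of stratified epithelia, was at 0.607 and 0.536 against 2.61 and 2.67 in Aire-low cells. Krt5, Trp63 and Ly6d were the 3 below Aire-low cells. Epcam lay above both neighbours, which had 5.68 and 6.48 (Aire-high) and 6.35 and 7.62 (Aire-low), without passing the fold.

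Genes linked to the stage after Aire were mixed. Of 19 post-Aire and barrier genes with enough UMIs, 3 were higher than in Aire-high cells and 0 lower, against 1.59% and 2.76% of all genes. Against Aire-low cells 7 were lower and 1, Anxa10, higher, where all genes gave 9.22% and 7.34%. Wfdc18, a small secreted protein gene, was at 8.56 and 8.54 against 3.07 and 2.93 in Aire-high cells and 8.56 and 8.03 in Aire-low cells. Lypd3 and Lgals7, genes of stratified epithelium, were the others above Aire-high cells. Spink5, a protease inhibitor gene of the skin barrier, was at 0.175 and 0.216 against 3.35 and 2.47 in Aire-low cells. Of 12 keratinocyte genes, 9 were also lower than in Aire-low cells, against the same 9.22%. Saa3, an acute phase gene, was at 2.34 and 4.90 against 1.13 and 1.59 in Aire-high cells.

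The genes with the greatest excess over Aire-high cells by the fixed ranking were mostly rare ones: Il17a, Mmp13, Ackr4, Rhox9, Reg2, Scn1a, Gas1, Guca1a, Ugt2b36, Serpina7, Dapl1 and Ccl3. Il17a, a cytokine gene, came from 2 control cells and 1 irradiated cell. Dapl1 was more broadly placed, at 1.76 and 1.21 against 0.290 and 0.253, log2 differences of 2.60 and 2.25. Gas1, a membrane protein gene of growth arrest and hedgehog signalling, was at 0.597 and 0.339 against 0.0981 and 0.0578, and Ackr4, the scavenging receptor for CCL19, CCL21 and CCL25, at 0.172 and 0.0766 against 0.0247 and 0.00871. The lowest were Nodal, Glycam1, Bhlha9, Prol1, Esp15, Prph2, Svs2, Rims1, Npm2, Cuzd1, Ccdc38 and Kcna1. Among genes found in at least 20% of the cells of the higher group in both libraries, a limit set after the values were seen, the excess included Apoe, a lipid carrier (3.18 and 2.52 against 0.841 and 0.669), Igfbp5, a binding protein of insulin-like growth factors (1.51 and 2.12 against 0.485 and 0.354), Wfdc18 and Krt5. The deficit included Nptx2, a synaptic pentraxin (0.291 and 0.446 against 1.33 and 1.43), Crhbp, the binding protein of corticotropin-releasing hormone (0.460 and 0.939 against 1.89 and 2.61), and Slc4a8, a bicarbonate transporter (0.478 and 0.632 against 1.46 and 1.67).

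Against Aire-low cells the same ranking gave, on the higher side, Hba-x, Ctsll3, Pnoc, Vip, Lce1h, Hbb-y, Cd207, Rhox12, Rhox9, Il17a, A2m and Bpifa2, each seen in 1 to 13 chosen cells of a library. On the lower side stood Krt6a, Pth, Kcna1, Fibin, Plcxd1, Scarf2, Ighg2b, Thbd, Gpx8, Lox, Bpifa1 and Prl7b1. Pth, which encodes parathyroid hormone, was at 0.144 and 0.487 against 20.9 and 30.2, but 21 control and 19 irradiated Aire-low cells made up the latter, with up to 7686 and 6646 UMIs in a cell. Genes found in at least 20% of the cells of the higher group were less extreme. Higher ones included Ttn, the sarcomere protein titin (0.908 and 1.23 against 0.175 and 0.174), Utf1, a chromatin gene of embryonic stem cells (2.66 and 2.73 against 0.489 and 0.635), Cdx1, an intestinal homeobox gene (1.85 and 2.12 against 0.366 and 0.494), and Stra8, a meiotic gene. Lower ones included Cxcl12, a chemokine of stromal and immature epithelial cells, at 0.355 and 0.337 against 4.39 and 4.96, and Ackr4, at 0.172 and 0.0766 against 2.18 and 1.46.

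Genes that peaked in the chosen cells were few. Of 8923 genes with at least 100 UMIs in the chosen cells, a minimum that admits genes through the group in which they may be high, 1280 were higher than in both neighbours in both libraries, 70 by at least 1.5-fold and 25 by at least 2-fold. The first 10 by the fixed ranking were Il17a, Rhox9, Guca1a, Ccna2, Ifit1bl1, Ctsll3, Vip, Cdc20, Chil3 and Mmp13. Ccna2 and Cdc20 act in the cell cycle, a cyclin and an activator of the anaphase-promoting complex. Cdc20 was at 0.278 and 0.513, from 22 and 46 cells, against 0.0849 and 0.0877 in Aire-high and 0.0890 and 0.175 in Aire-low cells. Other genes of the list came from very few cells. Of the genes most concentrated in few cells, Chil4 was held by 22 cells with 95.7% of its UMIs in 6 of them, Nppa, the atrial natriuretic peptide gene, by 20 cells with 93.6%, Tac1, the substance P precursor gene, by 35 with 90.7%, Npy, the neuropeptide Y gene, by 37 with 81.0%, Vip, the vasoactive intestinal peptide gene, by 21 with 88.1%, and Lor, the cornified envelope gene loricrin, by 13 with 97.1%. Hbb-y, Hba-x, Lcn2 and Dcpp1 had the same form, with 80.9% to 95.3% of UMIs in 6 cells.

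Between the libraries, the chosen cells differed by 1.5-fold or more in 850 of 9226 genes, 264 (2.86%) higher and 586 (6.35%) lower in the irradiated library. The median log2 ratio over all 9226 genes was -0.04. With the rule applied to thinned cells 286 genes were higher and 314 lower, so the excess of lower genes was small under that choice of cells. Other choices kept it, with 218 higher and 431 lower at an Aire level of 1.5 to 4. With at least 2 Aire UMIs the counts were 260 and 630. For 229 of the 850 the whole counting range lay past 1.5-fold. Leaving out the highest cell of each library for every gene, a setting added after the data were seen, gave 292 higher and 482 lower, and 229 of the 264 and 448 of the 586 were still past the fold. Of 6726 genes found in at least 20% of the chosen cells of both libraries, 47 (0.699%) were higher and 120 (1.78%) lower. Differences between the libraries were thus commonest among genes held by few cells.

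Immediate early and heat shock genes were often lower in the irradiated library. Of 18 tested, 11 were lower and 0 higher, against 6.35% lower over all genes, and the median log2 ratio was -0.70. Their sum was 111 and 82.2. Fos, an AP-1 subunit induced within minutes of a stimulus, was at 5.27 and 2.25, a log2 ratio of -1.23, and was found in 68.8% and 41.1% of cells. Jun, its partner, was at 8.19 and 4.56 (log2 -0.85), and Egr1, an early zinc finger factor, at 3.62 and 2.14 (log2 -0.76). Atf3, a stress-induced factor, was at 1.35 and 0.667, Dusp1, a MAP kinase phosphatase gene, at 1.91 and 1.01, and Hspa1b, an inducible chaperone gene with a near-identical copy whose reads may be split, at 6.42 and 3.95. Fosb, Ier3, Dnajb1, Zfp36 and Klf6 were the other genes past the fold. Hspa8, the constitutive chaperone and most abundant of the list, was at 23.8 and 20.9 and not past it. The same list was lower in the irradiated library in every other group of cells measured, at 94.1 and 73.8 in Aire-high, 170 and 85.4 in Aire-low, 85.8 and 55.0 in cortical and 142 and 86.6 in all kept cells.

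Division genes differed the other way. Of 14 tested, 9 were higher in the irradiated library and 0 lower, against 2.86% higher over all genes, with a median log2 ratio of 0.74. Cdk1, the mitotic kinase, was at 0.196 and 0.433 (log2 1.14), Ube2c, a ubiquitin enzyme of mitotic exit, at 0.229 and 0.571 (log2 1.31), Ccnb1, the cyclin partner of Cdk1, at 0.0900 and 0.192 (log2 1.08), and Birc5, a passenger protein gene of the mitotic spindle, at 0.178 and 0.360 (log2 1.01). Rrm2, Ccnb2, Hells, Cenpa and Cenpf were also past the fold. The difference was smaller in cells without any Mki67 or Top2a UMI. The list summed to 1.51 and 1.81 in those 153 and 227 cells, a log2 ratio of 0.26 (-0.01 to 0.53), and to 5.72 and 8.39 in the 65 and 114 cells with one. It was 2.24 and 2.41 in Aire-high cells, 1.52 and 2.13 in Aire-low cells and 5.67 and 8.08 in all kept cells. The list was lower in the irradiated library in cortical cells, at 3.10 and 2.96. The same held for cells of the same Aire range over the limit on Mcm genes alone, at 14.4 and 12.8. Against Aire-low cells, 10 of 16 division genes were higher in the chosen cells and 1, Tk1, lower, where 7.34% and 9.22% of all genes were, and against Aire-high cells Ccna2 and Ccnb2 of 15 were higher, where 1.59% were. The number of division genes past the fold depended on the choice of cells, with 2 of 7 tested when the rule was applied to thinned cells and 4 of 10 at an Aire level of 1.5 to 4.

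**Figure D3:**
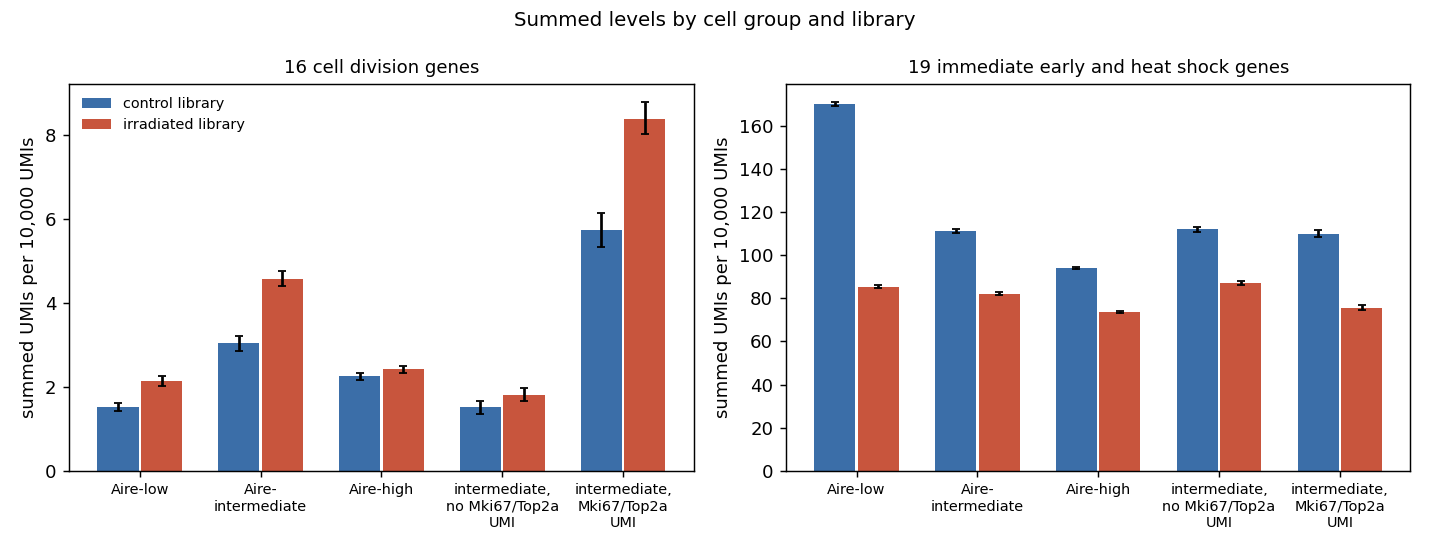
Summed level (UMIs per 10000, bars from 0, with exact Poisson 95% intervals) of 16 division genes and of 19 immediate early and heat shock genes in groups of cells, with a bar per library. The chosen cells stand at 3.03 and 4.57 for division genes, above Aire-high and Aire-low cells. In the chosen cells the immediate early list is lower in the irradiated library, at 111 and 82.2.

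Genes of the response to DNA damage passed the fold about as rarely as all genes, of which 2.86% were higher. Of 20 targets of p53, Cdkn1a, which encodes the cell cycle inhibitor p21, was the 1 gene past the fold, at 2.27 and 3.82, with a log2 ratio of 0.75 (0.59 to 0.91). It was found in 53.2% and 65.4% of cells. Below the fold, Bax, a pore-forming inducer of apoptosis, was at 2.83 and 4.14, Ccng1, a cyclin-like gene, at 0.823 and 1.18, Phlda3, an Akt inhibitor gene, at 1.27 and 1.75, and Mdm2, the ligase that degrades p53, at 1.505 and 1.55. The median log2 ratio of the list was 0.16, and 0 of 17 genes of the BCL2 family and Fas passed. Of 11 cyclins, Myc and inhibitors of cyclin-dependent kinases, Cdkn1a was the only gene past the fold.

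Interferon-stimulated genes were lower in part. Of 22, 7 were past 1.5-fold lower and 0 higher, against 6.35% and 2.86% over all genes, with a median log2 ratio of -0.07. Rsad2, an antiviral enzyme gene, was at 0.970 and 0.205 (log2 -2.24), Ifit1 at 2.30 and 1.04 (log2 -1.15) and Ifit3 at 1.13 and 0.389 (log2 -1.54), the Ifit genes being sensors of foreign RNA with close copies among themselves. The highest control cell for each gene held 128, 116 and 233 UMIs, and the highest irradiated cell 26, 18 and 28. Rsad2 was found in 12.8% and 5.28% of cells, Ifit1 in 58.3% and 46.0% and Ifit3 in 16.1% and 13.5%. Oasl2, an antiviral gene and the most abundant of the list, was at 2.88 and 2.76 and not past the fold. The sum of 25.6 and 21.4 leaned on few cells, since the top 3 control cells held 15.9% of it and the top 4 irradiated cells 6.75%, and without them it was 21.9 and 20.2. With the rule applied to thinned cells, 0 of 21 were lower and 2 higher.

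Chemokines as a list had no common direction. Of 16, 3 were higher and 3 lower, more on each side than the 2.86% and 6.35% over all genes. Ccl25, Ccl22 (0.414 and 0.169) and Ccl2, a monocyte attractant (1.31 and 0.517), were lower. Ccl17, a ligand of CCR4 like Ccl22 (0.280 and 0.651), Ccl7 and Ccl11 (0.147 and 0.406) were higher. Apart from Ccl25 these genes were held by few cells, 17 and 21 for Ccl22 and 15 and 27 for Ccl2. Ccl17 was in 21 and 32 cells, Ccl7 in 6 and 13 and Ccl11 in 23 and 34. The highest control cell for Ccl2 held 154 UMIs. The highest irradiated cells for Ccl17, Ccl7 and Ccl11 held 95, 79 and 58. Cxcl10, a ligand of CXCR3 and the most abundant at 13.9 and 13.1, and Ccl19, a ligand of CCR7, at 5.96 and 5.69, were not past the fold. Other lists had few or no genes past the fold between the libraries. No gene of 11 for MHC class II, 14 for MHC class I, 14 epithelial genes or 13 lipid genes passed, although Fabp5, a fatty acid binding protein gene, was at 48.3 and 62.7 (log2 0.38). Of 10 Aire-stage genes Fscn1, an actin bundler gene, was higher, at 2.42 and 3.81, and of 13 genes for partners of AIRE Xrcc5 was higher. In the RANK and CD40 list, of 11 tested, Tnfrsf11b was higher (0.561 and 0.943) and Map3k14, the kinase NIK, lower (0.368 and 0.228). Of 8 costimulatory genes Cd86 was lower (0.224 and 0.126), and of 6 Notch genes Jag2 and Dll4 were lower. Klf4, Foxj1 and Myog were the 3 of 16 mature medullary transcription factors that were lower, with Klf4, a regulator of barrier epithelium, at 0.813 and 0.423.

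**Figure D4:**
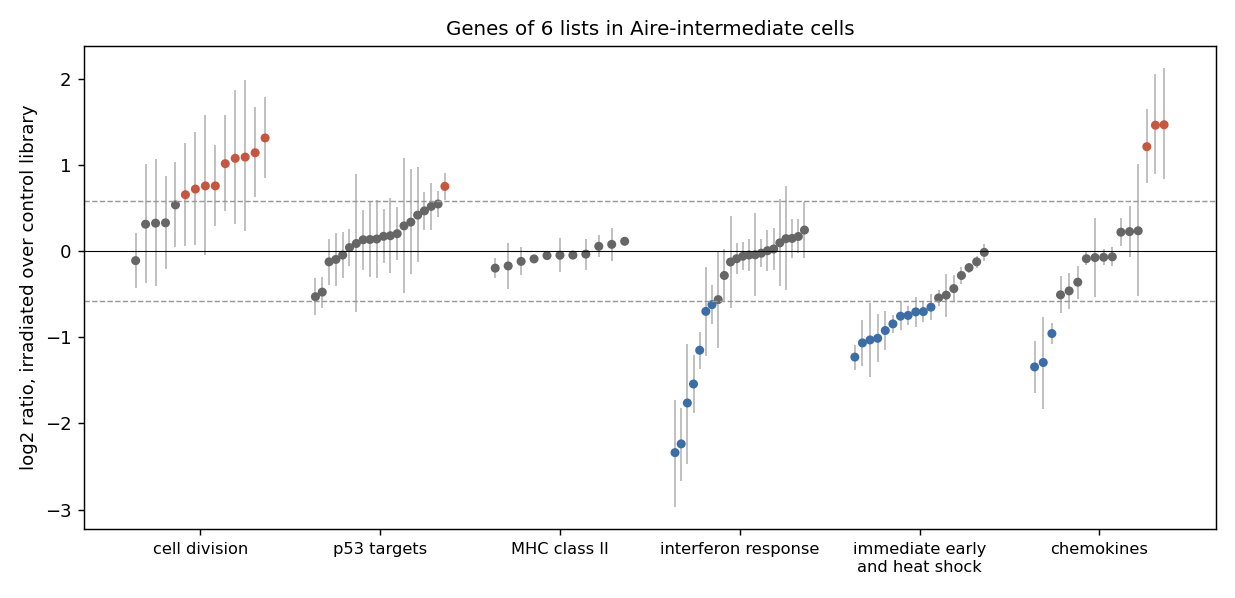
Log2 ratio of irradiated to control level in the chosen cells for each tested gene of 6 lists, with lines for the range that the opposite ends of the counting intervals allow and dashed lines at 1.5-fold (red points higher, blue lower, grey not past it). The immediate early genes lie mostly to the lower side (11 of 18 past the line), the division genes to the higher side (9 of 14), and the others on both sides of 0.

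Genes of other tissues, which mTECs express ectopically, differed in both directions, and the counts here stand against 2.86% higher and 6.35% lower over all genes. Of 14 neuroendocrine genes tested, 3 were higher, Npy, Chgb and Gcg, and 5 lower, among them Chga, a granule protein (0.404 and 0.251), Pcsk1, a prohormone protease (0.255 and 0.0441), and Ins2, an insulin gene (0.247 and 0.0747). Npy was at 0.193 from 12 control cells and 1.18 from 25 irradiated cells, of whose UMIs 214 were in 1 cell. Of 5 muscle genes 4 were lower, including Myog, the muscle regulator myogenin (0.244 and 0.0671), and Ckm, muscle creatine kinase (0.224 and 0.0479), with 25.5% and 27.2% of the list's UMIs in the top 3 control and top 4 irradiated cells. Among gut and liver genes Fabp1, Fabp2 and Saa3 were higher and Apoa4 and Vil1 lower. Of the 2560 irradiated Saa3 UMIs, 1369 were in 1 cell, and at an Aire level of 1.5 to 4 its log2 ratio turned to -0.025. Of 16 post-Aire and barrier genes Sbsn was higher and Krt10, Krt1, Cnfn and Lgals7 lower. Of 12 classic ectopic antigens 3 were higher and 4 lower, and Csn2, the casein beta gene and most abundant, was at 11.7 and 13.05. Among the cell-type lists, 2 of 10 cortical genes outside the rule, Dll4 and Cd83, were lower.

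The chosen cells held slightly less antigen RNA in the irradiated library. The study's list of tissue-specific antigens, of which only the first part was to hand, had 867 genes with over 500 UMIs in the libraries. Their sum was 265 (263 to 267) against 236 (235 to 237), control first, for a log2 ratio of -0.17 (-0.18 to -0.15). Of the 490 tested, 45 were higher and 96 lower, shares above those over all genes on both sides. The 492 AIRE-inducing antigens summed to 128 and 115 with a log2 ratio of -0.15 (-0.18 to -0.13), with 39 higher and 85 lower of 243. The corresponding log2 ratios were -0.07 and -0.12 in Aire-high cells and -0.06 and -0.12 in Aire-low cells. When thinned cells were chosen by the same rule, the log2 ratio was -0.033 for all antigens and 0.16 for the AIRE-inducing ones. After thinning, a chosen cell showed a median of 59 and 54 of the antigens and 16 and 15 of the AIRE-inducing ones. Aire-high cells showed 62 and 60, and Aire-low cells 42 and 44, of the former. Of 786 antigens compared with Aire-low cells, 168 were higher and 79 lower, against 7.34% and 9.22% over all genes. Of 823 compared with Aire-high cells 13 were higher and 39 lower, against 1.59% and 2.76%. The counts of 79 and 13 are near those shares. The list holds Ccl25, Wfdc18 and Tbata, and the AIRE-inducing list holds Ccl5. Reg3g, an antimicrobial lectin gene, was at 6.76 and 8.21, Fabp6, the ileal bile acid binding protein gene, at 2.02 and 1.16, and Cxcl13, a chemokine for B cells, at 0.872 and 1.99.

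By the fixed ranking, the genes furthest on the higher side in the irradiated library were Kcne1l, Bhmt, Sostdc1, Fmo2, Reg2, Npy, Prph, Ppp1r27, Hpx, Syt4, Hamp2 and Spink7. Kcne1l, a potassium channel subunit gene, had 0 UMIs in control cells and 241 in 5 irradiated cells, of which 168 were in 1 cell. Prph, the neuronal filament peripherin, was more widely held, at 0.0772 from 14 cells and 0.538 from 47 cells. Sostdc1, a BMP and WNT antagonist, was at 0.0232 and 0.331. On the lower side were Nefl, Mcpt4, Opalin, Cnfn, Angptl7, Il9, Chil4, Tac1, Tcstv3, Lce1j, Mcpt2 and Nppa. Chil4, a chitinase-like gene, was at 2.71 and 0.195 with 548 UMIs in 1 control cell, and Tac1 at 2.17 and 0.180 from 20 and 15 cells. Most of these genes were held at a high level by a few cells.

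Among genes found in at least 20% of the chosen cells, the higher side held Cryab, a small heat shock protein gene outside the stress list (0.499 and 1.32, log2 1.40, with 262 of 690 irradiated UMIs in 1 cell and a UMI in 43.6% of control and 32.3% of irradiated cells), Saa3 (2.34 and 4.90, with 1369 UMIs in 1 irradiated cell), Slc7a11, the cystine transporter gene (0.270 and 0.533), Crhbp (0.460 and 0.939), Fcer1g, a signalling chain of Fc receptors (0.893 and 1.70), Cdkn1a and Tnfrsf11b, with Acta2, Ptp4a3, Hacl1, Kat2a and Pdk3. The lower side held Klf2, a quiescence factor of lymphocytes and endothelium that is also induced early (1.52 and 0.596, log2 -1.35), Fos, Ifit1, Socs3, the inhibitor of cytokine signalling (1.59 and 0.730, log2 -1.12), Fosb and Atf3, with Psors1c2, Sp110, Aoc1, Pds5b, Ces2c and Fmo5. Of Sp110 UMIs, 242 were in 1 control cell.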

How the data were processed

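TECs were profiled as 10x 3′ libraries, 1 per condition. The deposited matrices hold raw UMI counts per gene and cell barcode, which the authors made with fastp, the mm10 genome and Cell Ranger (version 5.1 in the submitters' processing notes). All barcodes numbered 4937 (control) and 7167 (irradiated), with 58185309 and 82201657 UMIs. Counts were summed over cells with Python 3.11.15, numpy 2.4.6, scipy 1.17.1 and pandas 2.3.3, and plotted with matplotlib 3.10.9. Detected genes were those seen in at least 5 barcodes of a library, and no doublet caller was run, so only the upper limit of 7500 genes bears on doublets. Log2 ratios add 0.5 UMIs, genes need at least 100 UMIs, and "past the fold" means 1.5-fold between libraries or 2-fold in both libraries against neighbours. No test was run, as each condition is 1 library. Thinning drew 4000 UMIs per cell. The ratios were also run on simulated Poisson counts. These lack the concentration of UMIs in few cells seen here, so that run does not bear on it.

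Genes named include the markers and the genes of fixed lists (the 3 most abundant and those past the fold). The 12 highest and 12 lowest in each comparison, by the library or interval end nearest to no difference, are also named. So are the 10 with the clearest peak and the 10 with the greatest share of their UMIs in the top 1% of cells (among genes with at least 500 UMIs). Clone-numbered and some sex-linked genes were left out of the rankings, but the X-linked Rhox9, Rhox12 and Kcne1l stayed in. The cells and lists were chosen with earlier results of these data known. Antigen names, from the part of the study's list that was given, were matched by symbol (1849) or older symbol (138), and only the names were used. Gene positions are from GENCODE on GRCm38. Alternatives covered the mitochondrial limit, a thinned rule, an Aire range of 1.5 to 4, count minimums, added UMIs, the denominator and the mean over cells. A few genes of the lists are not reported here.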

Additional observations from a re-analysis of the deposited data

How the results depend on the processing

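No paired analysis was possible because each condition is 1 library, and for the same reason no replicate could be left out. The rule applied to cells thinned to 4000 UMIs selects cells with 1 Aire UMI, and it shares 76 of its 138 control and 128 of its 208 irradiated cells with the main choice. The share of kept cells differed between the libraries by a log2 ratio of -0.06 to 0.17 over the alternatives. The log2 ratio of Ccl25 was -0.81 under a 10% mitochondrial limit, -0.39 under the thinned rule, -1.30 at an Aire level of 1.5 to 4, -0.78 for thinned and -0.63 for unthinned shares of cells with 2 UMIs, and -1.42 without the highest 5% of cells. For all antigens it was -0.033 under the thinned rule, -0.14 at an Aire level of 1.5 to 4, and -0.15 as a mean over cells, without mitochondrial and ribosomal genes in the denominator, or without the 10 most abundant antigens. For AIRE-inducing antigens it turned to 0.16 under the thinned rule and was -0.040 at an Aire level of 1.5 to 4, -0.10 as a mean over cells and -0.22 without the 10 most abundant. The cause of these moves was not tested. Genes past 1.5-fold between the libraries numbered 850 in the main setting, 2360 (804 higher) with at least 30 UMIs, 182 (55 higher) with at least 300 and 167 (47 higher) among broadly held genes, and 286 higher and 314 lower under the thinned rule. Against Aire-high cells 616 genes became 1120 (418 higher) at 30 UMIs and 271 (104 higher) at 300, and 268 higher and 202 lower with 5 UMIs added. Against Aire-low cells 2062 became 1149 (343 higher) under the thinned rule and 1211 (437 higher) at 300 UMIs, with 1647 higher and 1397 lower at 30 UMIs and 1171 and 1102 as means over cells. Of 1526 values of 149 named genes and of the lists, 1435 kept their size, 86 moved and 5 reversed: Nppa (0.085) and Hacl1 (-0.31) under the thinned rule, and Resp18 (0.052), Saa3 (-0.025) and Rhox9 over Aire-high cells (-2.39) at an Aire level of 1.5 to 4. Immediate early genes were past the fold on the lower side in 10 to 13 cases under every alternative run.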

Other observations

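Lists for other mature medullary fates overlap in part with the upper limits of the rule, which fixes some of their low levels. Counts of genes past 1.5-fold between the libraries stand against 2.86% higher and 6.35% lower over all genes. The 10 microfold genes summed to 26.3 in control and 26.8 among irradiated cells, most of it Marcksl1 (11.1 and 11.2), a cytoskeletal regulator gene, and Anxa5 (8.42 and 8.70), an annexin gene. Ccl20 (0.167 and 0.333) and Ccl9 (0.172 and 0.287), chemokine genes that the rule itself limited, were the 2 of 7 past 1.5-fold, and nothing is read from them. The 14 tuft genes summed to 1.75 and 1.69, led by Sox9, a progenitor transcription factor, at 0.888 and 0.688, and 1 of 4 tested was past the fold, Ltc4s (0.170 and 0.282). The 9 ciliated genes summed to 0.875 and 0.785, with Dnah5 (0.100 and 0.176) higher and Foxj1 and Dnah9 lower of 3 tested. The 9 ionocyte and goblet genes summed to 0.934 and 1.26, and both genes tested, Tff2 (0.399 and 0.603) and Bpifa1 (0.337 and 0.519), were higher. Of 9 keratinocyte genes tested, Sbsn was higher and Krt10, Krt1 and Krtdap (0.376 and 0.220) lower.

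Among markers of cells outside the epithelium, Dcn, a matrix proteoglycan gene of fibroblasts, was at 1.57 and 0.853 and Col1a1, a collagen gene, at 0.185 and 0.412. Trbc1 (0.219 and 0.0575) and Trac, T cell receptor genes, were lower and Cd3g (0.129 and 0.197) higher. Cd79a (0.165 and 0.0747) was lower and Ighm (0.0720 and 0.236) higher, Pecam1 (0.0746 and 0.138) was higher, and of the myeloid genes Fcer1g was higher and C1qa (0.175 and 0.111) lower.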
